A study of Mus musculus with 947 samples.

Results

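The miR-148 and miR-152 family consists of 3 microRNAs (miRNAs), miR-148a-3p, miR-148b-3p and miR-152-3p, which were taken by name (mmu-miR-148a-3p, mmu-miR-148b-3p and mmu-miR-152-3p) from the tables of both cohorts, with no threshold on a value. The family had been selected on the levels of its members in these same libraries, so levels across tissues are given as a description and the tests are no independent evidence that the family stands out. They were 3 of the 1076 miRNAs (7883 RNAs of all classes) tabulated in the aging cohort and 3 of the 795 miRNAs (5248 RNAs) tabulated in the parabiosis cohort. Small RNA was sequenced from whole mouse organs, and each library is 1 organ of 1 mouse. The aging cohort held 769 libraries of untreated male and virgin female C57BL/6JN mice from 16 tissues, aged 1 month, 3 months and then every 3 months up to 27 months, in 160 groups of 1 to 6 libraries of a tissue and age, with males only at 24 and 27 months. The parabiosis cohort held 176 libraries of male mice from 6 tissues, in groups of 6 to 8, taken after the bodies of mice had been joined in pairs for 5 weeks so that they shared their blood. Young isochronic mice (IY, 3 or 4.5 months) were joined to young mice and aged isochronic mice (IA, 19 months) to aged mice. Young heterochronic mice (HY, 4 months) were each joined to an aged heterochronic mouse (HA, 19 months). The mice were not all of 1 strain, and the HY mice differed from the IY mice in strain as well as in partner. A difference of HY mice from IY or HA mice therefore cannot be told apart from one of strain. The aged mice were not all of 1 strain either, and their spread over IA and HA is not reported here. A part of strain in differences of HA from IA, or of IA from IY, therefore cannot be told apart.

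A miRNA is a short RNA that guides Argonaute proteins to messenger RNAs, and the bases near its 5′ end, the seed, select most of its targets. miRNAs with the same seed form a family, because they can pair with the same sites. The family described here is known for miR-148a, which is abundant in the acinar cells of the pancreas and in liver, where it takes part in cholesterol handling, and which acts in B cell development. DNA methyltransferase mRNAs are among the known targets of its members.

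The mature sequences are shown because they define the family and because they differ so little that reads could be shared between members. Capitals mark the seed, bases 2 to 8 from the 5′ end.
miR-148a-3p: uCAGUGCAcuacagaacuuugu
miR-148b-3p: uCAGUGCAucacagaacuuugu
miR-152-3p: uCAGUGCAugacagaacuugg

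The sequences and positions are those of RefSeq on GRCm38.p6, in which these were the 3 of 1738 mature mouse miRNAs with the seed CAGUGCA. miR-148a-3p is encoded at chr6:51269829-51269850 on the minus strand, between protein-coding genes, the nearest of which is Nfe2l3 at a distance of 162760 bp. miR-148b-3p is encoded at chr15:103285185-103285206 on the plus strand in intron 1 of Copz1, and miR-152-3p at chr11:96850439-96850459 on the plus strand in intron 1 of Copz2, each in the same orientation as its host gene. Copz1 and Copz2 encode related subunits of the COPI vesicle coat. Counted from the 5′ end, miR-148a-3p changes to miR-148b-3p by C9U and U10C, and to miR-152-3p by C9U, U10G and U20G. miR-148b-3p and miR-152-3p differ by C10G and U20G, which leaves 1 difference within the first 19 bases. Reads had been mapped with 1 mismatch allowed, so how reads were split between miR-148b-3p and miR-152-3p is uncertain. No member had the same value as another miRNA in every library.

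Levels are given as rpmm, reads per 1e6 mapped reads of the library, as deposited. Library depth ranged from 2.29 to 166.9 M (1e6) mapped reads in the aging cohort (median 20.11) and from 9.198 to 47.61 M in the parabiosis cohort (median 20.15). miR-148b-3p had no read in 3 libraries of the aging cohort, in spleen, subcutaneous adipose tissue (SCAT) and lung, where a count of 0 allows up to 0.899, 0.944 and 0.315 rpmm, and the other members had reads in every library. The profiles of 11 libraries of the aging cohort and 3 of the parabiosis cohort were closer to another tissue than to their labelled one. These included all 3 libraries of mesenteric adipose tissue (MAT) at 27 months, and in the parabiosis cohort 3 MAT libraries that were closest to gonadal adipose tissue (GAT). In 39 libraries of the aging cohort and 1 of the parabiosis cohort the summed miRNA signal was under 50% of the median of their tissue, 11 of them in brain and 8 in kidney. Fixed miRNA markers were highest in the labelled tissue for brain, liver, pancreas, heart, limb muscle, skin and brown adipose tissue (BAT), whereas the list for kidney and gut was highest in small intestine. The libraries are of whole tissue, so that fewer cells of a type and less RNA per cell cannot be told apart.

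Across tissues the members had different patterns. miR-148a-3p was highest in pancreas, at 4497 ± 2785 rpmm (SD, n = 45, lowest 2.20, median 4159.7, highest 19350.4), followed by liver at 637 ± 251 rpmm (n = 52) and small intestine at 253 ± 80.5 rpmm (n = 50). It was lowest in kidney (32.3 ± 21.0 rpmm, n = 51), limb muscle (18.6 ± 9.93 rpmm, n = 47) and brain (17.5 ± 7.56 rpmm, n = 51). The lowest pancreas library was 1 at 3 months whose profile was closest to limb muscle. Going down the order, pancreas and liver, and liver and small intestine, differed by more than the spread of their log2 levels, and no other neighbours did. From small intestine the order ran through SCAT, GAT, spleen, MAT, marrow, bone, skin, heart, lung and BAT, with means falling from 244 to 79.9 rpmm.

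miR-148b-3p was the most even member and the least abundant in most tissues. Its mean was highest in marrow, at 39.3 ± 12.9 rpmm (n = 56), and lowest in limb muscle, at 8.79 ± 5.21 rpmm. Lung, pancreas, small intestine and kidney followed marrow with means between 29.7 and 30.7 rpmm, and no neighbours in its order differed beyond their spread. miR-152-3p was also highest in pancreas, at 559.98 ± 426 rpmm, and was next highest in the adipose depots GAT (262 ± 115 rpmm) and SCAT (258 ± 123 rpmm) and in lung (209 ± 75.8 rpmm). It was lowest in spleen (42.2 ± 20.2 rpmm), marrow (27.2 ± 10.8 rpmm) and brain (23.7 ± 11.8 rpmm), again with no neighbours that differed beyond their spread. Its mean log2 level was 8.78 in pancreas and 7.92 in GAT. The SD of 1.36 in pancreas included the library closest to limb muscle, at 1.10 rpmm. Without libraries low in miRNA that SD was 0.689, so the overlap of pancreas with GAT rests on this library. The fold between the highest and the lowest tissue mean was 257 for miR-148a-3p, 4.48 for miR-148b-3p and 23.7 for miR-152-3p. With the summed miRNA signal as the base these folds were 1101, 15.6 and 92.4, since the share of reads that were miRNAs differed between tissues. On that base, and with scaling by median ratios, miR-148b-3p was highest in pancreas and not in marrow.

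**Figure D1:**
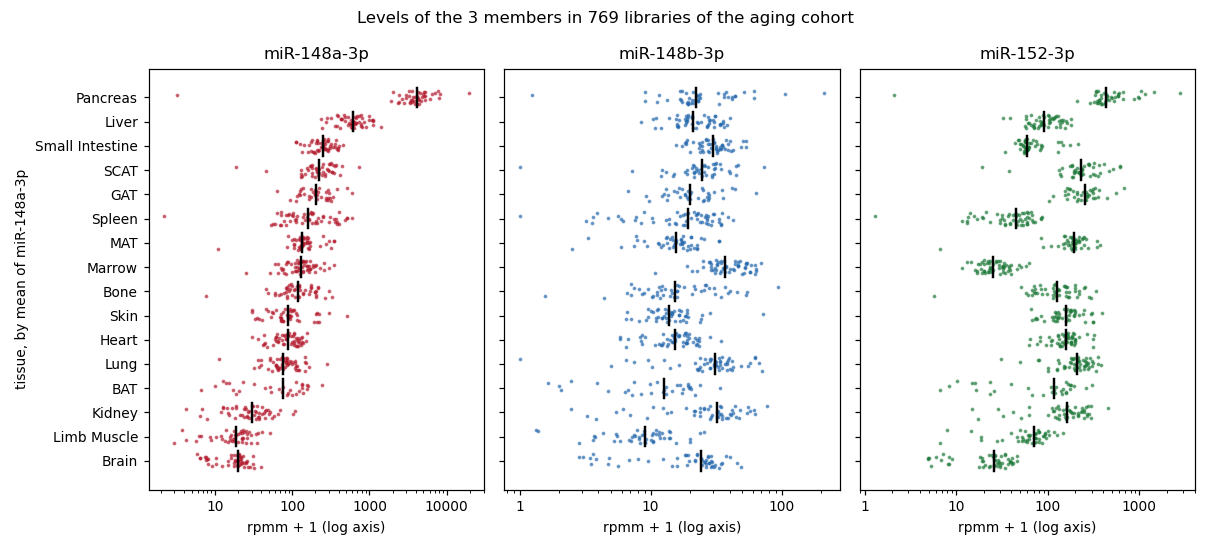
Level of each member in the 769 libraries of the aging cohort (rpmm + 1, log axis), with tissues ordered by the mean of miR-148a-3p from pancreas to brain. Each point is 1 library and the black line is the median of the tissue, which for miR-148a-3p runs from 4159.7 rpmm in pancreas to 17.8 in limb muscle and 18.7 rpmm in brain, while miR-148b-3p stays within a narrow band.

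The family made up a median of 3.37% of the miRNA signal in pancreas, 0.218% in liver and 0.0116% in brain. miR-148a-3p was the most abundant member in 5 tissues and miR-152-3p in the other 11, and miR-148b-3p was the most abundant in 0. The median share of miR-148a-3p within the family was 89.4% in pancreas, 85.2% in liver, 76.4% in spleen, 74.0% in small intestine and 67.4% in marrow. It exceeded miR-152-3p in 45 of 45 pancreas, 52 of 52 liver, 55 of 55 spleen, 47 of 50 small intestine and 55 of 56 marrow libraries. In kidney, lung and limb muscle miR-152-3p took most of the family, and the share of miR-148a-3p was 13.7%, 25.7% and 19.9%. Brain was the only tissue in which the median share of miR-148b-3p exceeded that of miR-148a-3p, with shares of 29.2% for miR-148a-3p, 31.8% for miR-148b-3p and 37.3% for miR-152-3p.

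The passenger arms of the same precursors were lower on average in every tissue, though by less for miR-148b, whose passenger arm had a mean of 11.7 rpmm in small intestine against 29.7 rpmm for the guide arm. miR-148a-5p had tissue means of 0.004 to 2.17 rpmm and was highest in pancreas, miR-148b-5p had means of 2.32 to 11.7 rpmm and miR-152-5p means of 0.215 to 3.71 rpmm. Over the 16 tissue means of log2(rpmm + 1), the other miRNAs most like miR-148a-3p were miR-148a-5p (Pearson r = 0.84), miR-6546-3p (r = 0.73) and miR-802-3p (r = 0.71). Those most like miR-148b-3p were miR-423-3p (r = 0.79), miR-423-5p (r = 0.79) and miR-652-5p (r = 0.74), and those most like miR-152-3p were miR-152-5p (r = 0.95), miR-574-3p (r = 0.76) and miR-199b-5p (r = 0.75). Between members r was 0.52 for miR-148a-3p and miR-152-3p, 0.43 for miR-148a-3p and miR-148b-3p, and 0.08 for miR-148b-3p and miR-152-3p. These correlations describe 16 tissues that share library preparation, and arms of 1 precursor come from the same transcript.

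The relation of each member to age was described within each tissue by Spearman's rho, and called where rho was over 0.5 or under -0.5. miR-148a-3p rose with age in spleen (rho = 0.640, n = 55) and marrow (rho = 0.586, n = 56) and fell in limb muscle (rho = -0.545, n = 47). In BAT miR-148b-3p (rho = 0.552, n = 31) and miR-152-3p (rho = 0.536) rose. The adjusted permutation p was 0.000171 in spleen, 0.000296 in marrow, 0.000599 in limb muscle and 0.0262 for both miRNAs in BAT, over 100000 shuffles of age, two-sided and adjusted over all miRNAs of the tissue. In spleen and marrow 1.32% and 4.14% of all tested miRNAs passed in the same direction, but in BAT and limb muscle 15.2% and 16.5% did, so a member that passed there was in the company of many other miRNAs. Over the 16 tissues, 3.75% of all tests gave a rho over 0.5 and 4.31% a rho under -0.5, and 5 of the family's 48 passed in either direction.

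**Figure D2:**
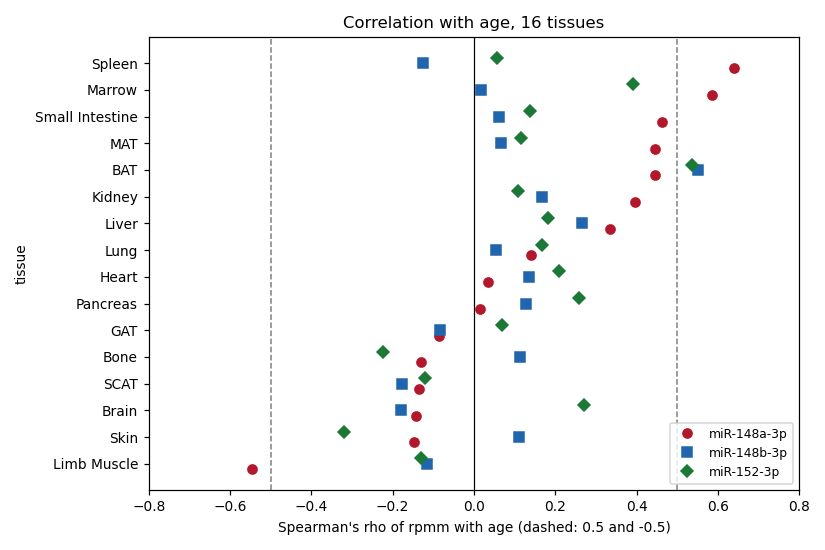
Spearman's rho between level and age for each member in 16 tissues (x axis, no unit; y axis, tissue), with dashed lines at 0.5 and -0.5. miR-148a-3p lies beyond a line in spleen, marrow and limb muscle, while miR-148b-3p and miR-152-3p do so in BAT alone.

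In the 3 tissues where miR-148a-3p passed, the other members had values inside the limits. rho was -0.125 for miR-148b-3p and 0.057 for miR-152-3p in spleen, 0.017 and 0.392 in marrow, and -0.115 and -0.130 in limb muscle. Pearson's r with age was 0.557 for miR-148a-3p in spleen and 0.546 after the 2 libraries of the most extreme age had been left out, 0.573 and 0.530 in marrow, and -0.380 and -0.349 in limb muscle. Called by the adjusted p alone, 9 pairs of member and tissue passed, which added miR-148a-3p in small intestine (rho = 0.462), MAT (rho = 0.445) and BAT (rho = 0.445) and miR-152-3p in marrow (rho = 0.392). The share of all miRNAs that passed by the adjusted p is not given, so this count has no background beside it. For miR-148a-3p in BAT the permutation p was 0.0131 and its adjusted value 0.0425, so many other miRNAs of BAT passed as well. With the library plate removed, rho was 0.304 for miR-148b-3p and 0.457 for miR-152-3p in BAT, against 0.716, 0.705 and -0.572 for miR-148a-3p in spleen, marrow and limb muscle. The lowest rho in BAT was 0.184 for miR-148b-3p, with median-ratio scaling, and 0.344 for miR-152-3p, with miRNA-read scaling. The markers miR-126a-3p, miR-142a-5p, miR-155-5p, miR-208b-3p and miR-365-3p passed the age limits in BAT in the same direction, and their part in the result was not tested.

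In spleen the median level of miR-148a-3p at successive ages from 1 to 27 months was 64.0, 84.4, 151, 173, 204, 204, 184, 281, 332 and 252.5 rpmm. The medians were thus higher at every age from 6 months on than at 1 or 3 months. The level of miR-148b-3p had medians between 11.1 and 25.3 rpmm and that of miR-152-3p between 39.5 and 54.1 rpmm over the same ages. Within a library, which leaves out any scaling between libraries, the median ratio of miR-148a-3p to miR-148b-3p was 3.43 at 1 month, 3.89 at 3 months, 14.8 at 12 months, 19.6 at 21 months and 14.3 at 27 months. The ratio of miR-148a-3p to miR-152-3p was 1.52 at 1 month, 2.14 at 3 months, 7.27 at 21 months and 6.15 at 27 months. miR-148b-3p in spleen also differed with the numbers in the library titles. Its median was 20.4 rpmm in numbers 25 to 36, 8.68 in 37 to 48 and 3.33 rpmm in 49 to 60. The libraries of 3 months had numbers 01 to 30, and those of 21 months included 44, 49 and 54. The part of the title numbers in these ratios was not tested. Of the 40 fixed markers of cell types tested in spleen, 0 passed the age limits in the same direction.

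Marrow, the other blood-forming tissue, had a flatter course. The median of miR-148a-3p was 71.2 rpmm at 1 month, 89.5 at 3 months, 158 at 21 months and 192 rpmm at 27 months. Its ratio to miR-148b-3p had medians of 1.86 at 1 month, 2.11 at 3 months and 3.32 at 27 months, and its ratio to miR-152-3p of 3.28, 3.82 and 5.34. Neither ratio rose evenly, with medians of 4.86 and 6.36 at 15 months and of 4.70 and 4.55 at 21 months. The rho of miR-148a-3p in marrow was 0.486 without the mice of 1 month and 0.471 without those of 24 and 27 months. The markers miR-155-5p, miR-200b-3p and miR-203-3p also passed in marrow (rho = 0.61, 0.52 and 0.58), and their part in the result was not tested. In limb muscle the median of miR-148a-3p was 26.6 rpmm at 1 month, 26.7 at 3 months, 24.5 at 6 months, 18.5 at 9 months and 16.7 at 12 months. It was 7.81 rpmm at 15 months, 21.1 at 18 months, 14.7 at 21 months and 15.1 at 27 months, and the values at the later ages thus lay below those of the first 6 months without an even slope. Scaled by median ratios, rho in limb muscle was -0.472, which did not pass.

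**Figure D3:**
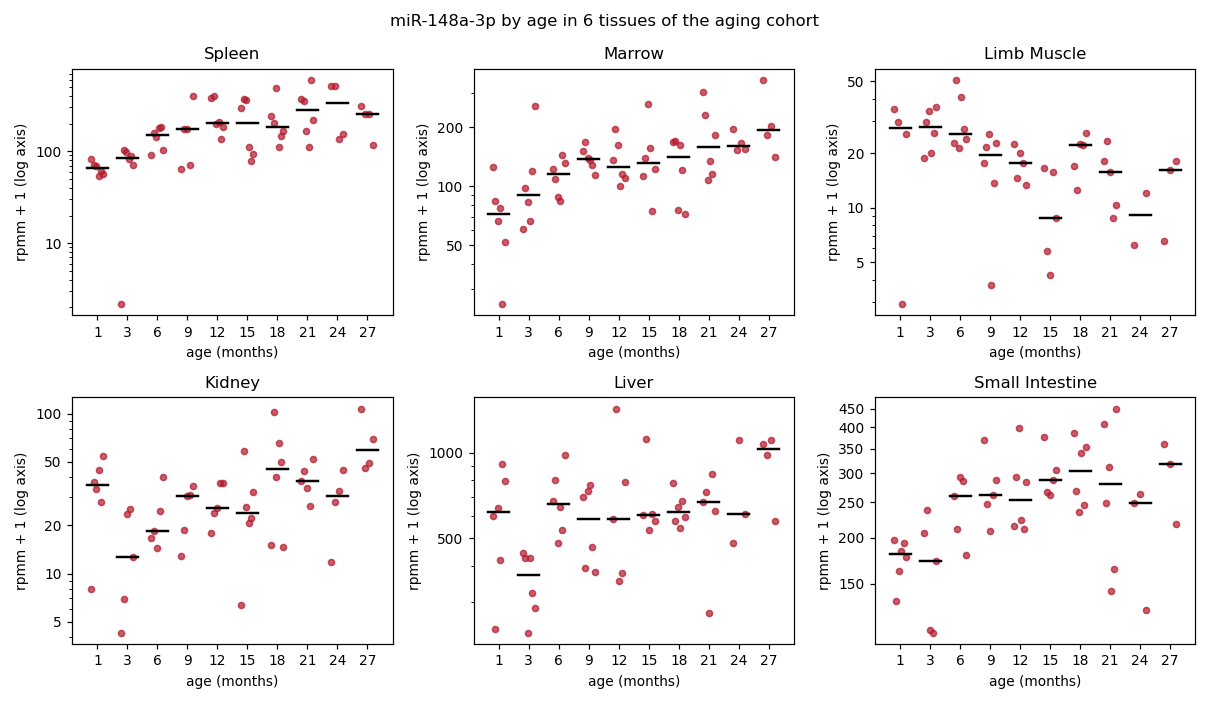
miR-148a-3p in 6 tissues of the aging cohort (y axis, rpmm + 1 on a log axis; x axis, age in months), with 1 point per library and a line at the median of each age. In spleen the medians lie between 151 and 332 rpmm from 6 months on against 64.0 and 84.4 rpmm at 1 and 3 months, and 1 library at 3 months lies far below the others at 1.198 rpmm.

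The change with age was next tested between groups, as 21 against 3 months and then for each later age against 3 months, with limma on log2(rpmm + 1). At 21 months miR-148a-3p was higher than at 3 months in spleen and in small intestine, which were 2 of 42 comparisons of member and tissue, all upwards, where 2.24% of all tests were higher and 1.62% lower. In spleen the lowest, median and highest values were 1.198, 84.4 and 102 rpmm at 3 months and 111, 281 and 599 rpmm at 21 months (n = 6 each). The groups did not overlap, and the log2 fold change was 2.45 ± 0.58 (SE), a fold of 5.46 on the log2(rpmm + 1) scale, with an adjusted p of 0.0145. miR-148b-3p (log2 fold change -0.20, adjusted p = 0.933) and miR-152-3p (0.56, adjusted p = 0.745) did not pass in spleen, and 0.943% of the spleen's miRNAs were called higher. The lowest library at 3 months was shallow and low in miRNA, and without it the log2 fold change was 1.56, a fold of 2.96, with an adjusted p of 0.0262. Among males only it was 2.58, with an adjusted p of 0.277, from fewer libraries that still included this low one. The test lost its call in spleen without replicate 21 or 49 of 21 months, both from females, with adjusted p of at most 0.0788.

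miR-148a-3p in spleen was also higher at 12 months (134 to 402 rpmm, log2 fold change 2.29 ± 0.58 SE, adjusted p = 0.0384) and at 24 months, where the 4 libraries held 136, 153, 510.5 and 514 rpmm (2.52 ± 0.65 SE, adjusted p = 0.0457). Without the low library at 3 months these were 1.40 with an adjusted p of 0.231 and 1.64 with an adjusted p of 0.0463. The call at 12 months was also lost with edgeR (adjusted p = 0.158), in males only (0.0949) and with no filter on low values (0.107). Leaving out any of 6 of the 12 libraries compared ended it too, with adjusted p of up to 0.231. The call at 24 months was lost with no filter (adjusted p = 0.126) and in 23 of 55 fits that left out 1 library, with adjusted p of up to 0.286. The change from 3 to 21 months in spleen was set against the mean change of the other tissues in 1 model. Organs of the same mice were among its libraries, and it held no term for the mouse. The change of miR-148a-3p in spleen was the value compared. This change exceeded the mean of the others by 1.95 ± 0.50 (log2, SE, adjusted p = 0.00613), and by 1.39 (adjusted p = 0.00686) without the libraries low in miRNA. Of the 368 miRNAs present in all tissues, 2.72% were called higher in this sense. In limb muscle the change of miR-148a-3p fell short of the mean of the others by 1.65 (log2 difference -1.65 ± 0.53 SE, adjusted p = 0.0126) and that of miR-152-3p by 1.36 (-1.36 ± 0.53 SE, adjusted p = 0.0481). There 22.8% of the miRNAs were lower in this sense, and scaled by median ratios the difference for miR-148a-3p was -0.69 with an adjusted p of 0.182.

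Over all later ages, 13 of 342 comparisons of member, tissue and age passed, 10 higher and 3 lower, where 1.27% and 1.5% of all tests did. miR-148a-3p made up 11 of the 13. The sign of its change was positive in 88 of 114 comparisons (median log2 fold change 0.46), against 76 for miR-148b-3p (0.28) and 75 for miR-152-3p (0.25), and all ages of a tissue share the same libraries of 3 months. At 1 month against 3 months 0 of 42 comparisons passed in limma, where 1.76% of all tests did. Unadjusted p under 0.05 was reached there in 5 tissues by miR-148a-3p, in 0 by miR-148b-3p and in 1 by miR-152-3p, and edgeR on reads recovered from the rpmm values also called 0.

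In liver, where miR-148a-3p is the main member, it was higher at 6 and at 27 months than at 3 months. The 6 libraries at 3 months held 233 to 445 rpmm (median 373). At 6 months the range was 482 to 976 rpmm (median 659.9, log2 fold change 0.94 ± 0.30 SE, adjusted p = 0.0313). The 4 libraries at 27 months held 574, 977, 1074 and 1107 rpmm (1.38 ± 0.34 SE, adjusted p = 0.00186). Neither group overlapped with that of 3 months. The median log2 fold change over all miRNAs of the liver was 0.55 at 27 months, however, and 28.1% of them were called higher. At 6 months the median was 0.41 and 70 of 501 were called higher. Scaled by median ratios or to the summed miRNA signal, the change at 27 months was 0.64 (adjusted p = 0.111) and 0.71 (adjusted p = 0.0842), and the change at 6 months did not pass either. Leaving out any of 6 of the 12 libraries compared at 6 months also ended that call, with adjusted p of up to 0.0986. Of the 39 markers tested in liver, 9 were called higher at 27 months. The summed white blood cell markers, 4 of 5 of which were called higher, ranged from 376 to 1083 rpmm at 3 months and from 1089 to 2393 rpmm at 27 months. The fibroblast markers, of which miR-199a-3p was called (log2 fold change 1.44), summed to 429.6 to 835 rpmm at 3 months and to 1352 to 1802 rpmm at 27 months. The others were miR-143-3p of the vessel wall (1 of 3), miR-193b-3p and miR-365-3p of brown fat (2 of 3) and miR-499-5p of heart (1 of 2 tested). The brown fat sum did not rise with its called markers. It was 3307 to 20567 rpmm (median 6779) at 3 months and 3245 to 10534 rpmm (median 6238) at 27 months. At 6 months miR-142a-5p (1 of 5 of white blood cells) and miR-199a-3p (1 of 2 of fibroblasts) were called, and the fibroblast sum was 899 to 1490 rpmm. The part of these markers in the results was not tested.

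In kidney, a tissue in which miR-148a-3p is scarce, it was higher at 27 months together with miR-148b-3p. The 5 libraries of 3 months held 3.28, 5.90, 11.8, 22.6 and 24.4 rpmm of miR-148a-3p and the 4 libraries of 27 months 44.6, 47.96, 68.7 and 106 rpmm. The values did not overlap, and the log2 fold change was 2.44 ± 0.57 (SE, adjusted p = 0.0139), where 5.82% of the kidney's miRNAs were called higher and the median over all of them was 0.73. miR-148b-3p ran from 1.45 to 26.3 rpmm at 3 months and from 40.4 to 60.5 rpmm at 27 months (log2 fold change 2.29, adjusted p = 0.0414). Replicates 08 and 11 of 3 months, like other kidney libraries, were low in miRNA. Without all such libraries the change was 1.70 for miR-148a-3p (adjusted p = 0.0296) and 1.33 for miR-148b-3p (adjusted p = 0.0741). Scaled by median ratios the change of miR-148a-3p was 1.30 (adjusted p = 0.00779), and scaled to the summed miRNA signal it was 1.54 (adjusted p = 0.0122). Leaving out 3-month replicate 08 or 11 alone gave adjusted p of 0.112 and 0.0527 for miR-148a-3p, and leaving out 27-month replicate 14 gave 0.139. The call of miR-148b-3p was lost without any of 6 of its 9 libraries, all 4 of 27 months among them (adjusted p of up to 0.210), with edgeR (0.121) and in males only (0.113). White blood cell markers moved with these values, with 4 of 5 called higher. Their sums were 156 to 1343 rpmm at 3 months and 1545 to 2938 rpmm at 27 months. miR-124-3p of the brain list (1 of 3) was called as well. The brain sums overlapped, at 145 to 2137 rpmm at 3 months and 658 to 1249 rpmm at 27 months. The part of these markers in the result was not tested.

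In limb muscle miR-148a-3p was lower at 15 months, with values of 3.23, 4.75, 7.81, 14.7 and 15.6 rpmm against 17.8 to 34.8 rpmm in the 6 libraries of 3 months. The groups did not overlap, and the log2 fold change was -1.58 ± 0.47 (SE, adjusted p = 0.0124). Called lower at this age were 22.2% of the miRNAs of limb muscle, and the median over all of them was -0.45. The call was lost without 15-month replicate 33 (log2 fold change -1.31, adjusted p = 0.0799), with plate as a covariate (adjusted p = 0.255) and under median-ratio scaling (adjusted p = 0.0519). miR-152-3p in limb muscle at 15 months had a log2 fold change of -1.24 (adjusted p = 0.0873). The markers miR-142a-3p (1 of 5 of white blood cells), miR-208b-3p (1 of 3 of heart) and miR-451a (1 of 3 of red blood cells) were called lower as well. The white blood cell sums overlapped, at 230 to 925 rpmm against 727 to 1547 rpmm at 3 months. So did the red blood cell sums, at 226 to 763 rpmm against 545 to 2047 rpmm. The heart sums did not, at 4.70 to 10.1 rpmm against 11.2 to 36.1 rpmm. The part of these markers in the result was not tested.

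Small intestine had higher miR-148a-3p at 18 months (235 to 385 rpmm, log2 fold change 0.90 ± 0.25 SE, adjusted p = 0.0460) and at 21 months (142 to 449 rpmm, 0.72 ± 0.25 SE, adjusted p = 0.0476) than at 3 months (109 to 237 rpmm, n = 5). The groups overlapped, and the adjusted p lay close to 0.05 in each case. At 18 months 9 of the 542 miRNAs of small intestine were called higher and at 21 months 12.5%, and leaving out 1 library ended the call in 29 of 50 fits at 18 months and 25 of 50 at 21 months. The call at 18 months was lost when scaled to the summed miRNA signal (adjusted p = 0.192) or by median ratios (0.116), and that at 21 months by median ratios (log2 fold change 0.39, adjusted p = 0.268). Of 40 markers 0 were called higher at 18 months. At 21 months miR-143-3p of the vessel wall (1 of 3) and miR-193b-3p of brown fat (1 of 3) were, and their part in the result was not tested. In MAT miR-148a-3p held 298, 349 and 351 rpmm at 27 months against 99.7 to 154 rpmm at 3 months (log2 fold change 1.45 ± 0.45 SE, adjusted p = 0.0134), where 24.4% of miRNAs were called higher. All 3 libraries of 27 months were closest to another tissue, so no comparison without them was possible. Their white blood cell markers summed to 11089 to 18071 rpmm, against 827 to 1677 rpmm at 3 months, and 5 of 5 were called higher. The exocrine pancreas markers, 2 of 2 tested of which were called higher, summed to 3.51 to 12.3 rpmm at 3 months and to 22.2 to 59.9 rpmm at 27 months in MAT. The part of both lists in the result was not tested. The call in MAT was lost with the plate (adjusted p = 0.121) or the set of 12 title numbers (0.0553) as a covariate.

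In skin at 15 months miR-148a-3p (32.1 to 94.0 rpmm against 55.3 to 299 rpmm at 3 months, log2 fold change -1.19 ± 0.42 SE, adjusted p = 0.0432) and miR-152-3p (72.1 to 163 rpmm against 121 to 392 rpmm, -1.01 ± 0.32 SE, adjusted p = 0.0228) were lower, with overlapping groups. At that age 17.3% of the skin's miRNAs were called lower and the median over all of them was -0.51. Both calls were lost under either scaling to miRNAs, and that of miR-148a-3p also without the libraries low in miRNA (-1.06, adjusted p = 0.0963), where miR-152-3p kept its call (-0.90, adjusted p = 0.0364). Both were lost as well with the plate as a covariate (adjusted p of 0.0996 for miR-148a-3p and 0.0730 for miR-152-3p) and with the set of 12 title numbers (0.125 and 0.0644). Leaving out any of 6 of the 12 libraries compared ended the call of miR-148a-3p, with adjusted p of up to 0.162. For miR-152-3p any of 5 of the 12 did so, with adjusted p of up to 0.0969. The red blood cell markers summed to 169 to 906 rpmm at 3 months and 58.5 to 188 rpmm at 15 months in skin, with 2 of 3 called lower, and their part in the results was not tested.

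Between the sexes, compared over the ages at which a tissue had both, 2 of 48 pairs of member and tissue passed, both lower in females, where 3.98% of all tests were lower and 2.17% higher. miR-148a-3p in skin ranged from 28.8 to 122 rpmm in 13 females (median 60.6) and from 32.1 to 299 rpmm in 26 males (median 92.3). The ranges overlapped, the log2 fold change was -0.63 ± 0.21 (SE, adjusted p = 0.0175), and 16.4% of the skin's miRNAs were lower in females. miR-152-3p in SCAT ranged from 37.004 to 282 rpmm in 11 females (median 193) and from 130.1 to 607 rpmm in 23 males (median 271). The log2 fold change was -0.61 ± 0.22 (SE), at an adjusted p of 0.0329. In SCAT 28.1% of miRNAs were lower in females, 10 of 42 markers among them, and the median over all miRNAs was -0.29. In skin 1 of 40 markers, miR-199a-3p, was lower in females, and the part of these markers was not tested. Without the libraries low in miRNA the change in SCAT was -0.41 with an adjusted p of 0.110, and that of miR-148a-3p in skin was -0.68 with an adjusted p of 0.00762.

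In the parabiosis cohort, aged and young isochronic mice were compared to see the age difference among joined mice. miR-148a-3p in kidney was higher in IA mice (lowest 43.04, median 56.2, highest 81.5 rpmm, n = 8) than in IY mice (20.2, 26.6 and 37.7 rpmm, n = 8). No IY library reached the level of any IA library, and the mean was 58.1 ± 12.8 rpmm against 27.6 ± 5.47 rpmm (SD). The log2 fold change was 1.04 ± 0.17 (SE), with an adjusted p of 0.000355 and of 0.000752 with the replicate block, the joined pair as a random effect. miR-148b-3p held 46.3 ± 5.42 and 45.6 ± 6.16 rpmm in the same groups (log2 fold change 0.02, adjusted p = 0.954) and miR-152-3p 224 ± 51.1 and 192 ± 26.1 rpmm (0.20, adjusted p = 0.456). In this tissue 4.1% of all miRNAs were called higher and the median over all of them was 0.01. The call was kept in every fit that left out 1 library of the kidney, and with the 4 IY mice of 4.5 months alone the log2 fold change was 0.87 with an adjusted p of 0.0866. White blood cell markers summed to 746 to 1544 rpmm in IY and 1294 to 2722 rpmm in IA kidneys (3 of 5 called higher). miR-214-3p of fibroblasts (1 of 2) and miR-124-3p of brain (1 of 3) were called too. The fibroblast sums overlapped, at 3320 to 5978 rpmm in IY and 3495 to 8975 rpmm in IA kidneys. The brain sums had medians of 541 rpmm in IY and 551 rpmm in IA kidneys. The part of these markers in the result was not tested.

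The heterochronic mice gave a smaller difference in the same direction. HA kidneys held 20.45 to 55.4 rpmm of miR-148a-3p (40.6 ± 12.9 rpmm, SD, n = 6) and HY kidneys 18.5 to 34.2 rpmm (26.7 ± 5.76 rpmm, n = 7), which overlapped. The log2 fold change was 0.55 ± 0.19 (SE, adjusted p = 0.0397), and the aged partner was higher in 6 of 6 joined pairs. With the replicate block the adjusted p was 0.0258 with the pair as a random effect and 0.0540 with the pair as a fixed term, and the call was lost in 8 of 29 fits that left out 1 library, HA replicate 11A among them. In this comparison 13.8% of the kidney's miRNAs were called higher. White blood cell markers summed to 689 to 1238 rpmm in HY and 1227 to 3075 rpmm in HA kidneys (4 of 5 called). Fibroblast markers summed to 3075 to 4137 rpmm and 5332 to 8513 rpmm (2 of 2 called). Also called higher were miR-124-3p of brain (1 of 3), miR-375-3p of endocrine pancreas (1 of 2) and miR-206-3p of limb muscle (1 of 3). The sums of those lists overlapped. Medians in HY and HA kidneys were 483 and 399 rpmm for brain and 121 and 113 rpmm for limb muscle. For endocrine pancreas they were 509 and 597 rpmm. The part of all these markers was not tested.

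Limb muscle gave the opposite direction. miR-148a-3p was lower in IA (9.92, 14.2 and 27.1 rpmm as lowest, median and highest) than in IY limb muscle (17.8, 24.5 and 29.96 rpmm, n = 8 each), with means of 15.8 ± 6.44 and 24.0 ± 4.85 rpmm (SD). The groups overlapped, and the log2 fold change was -0.63 ± 0.21 (SE, adjusted p = 0.0349), where 12.7% of the miRNAs of limb muscle were called lower and 0 of 40 markers moved with it. With the replicate block the adjusted p was 0.0557, and with the IY mice of 4.5 months alone the change was -0.47 with an adjusted p of 0.588. Leaving out any of 9 of the 16 libraries compared also ended the call, with adjusted p of up to 0.0927. HA limb muscle held 16.7 ± 7.99 rpmm and HY limb muscle 23.9 ± 4.05 rpmm (SD, n = 7 each). The log2 fold change between them was -0.58, with an adjusted p of 0.0915, and of 0.0371 with the pair as a random effect and 0.0782 with the pair as a fixed term, and the aged partner was lower in 6 of 7 pairs. Over all 18 pairs of member and tissue, 1 was called higher and 1 lower in IA against IY mice, where 3.43% and 4.7% of all tests were. Between HA and HY mice 1 was called higher and 0 lower, where 5.51% and 4.3% of all tests were.

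The exchange of blood was compared as REJ, aged mice with a young partner against aged mice with an aged one (HA against IA), and ACC, young mice with an aged partner against young mice with a young one (HY against IY). For REJ 0 of 18 pairs of member and tissue passed in limma, where 0.965% of all tests did. Unadjusted p under 0.05 was reached in 2 tissues by miR-148a-3p, in 1 by miR-148b-3p and in 0 by miR-152-3p, and edgeR called 0. The 2 tissues were kidney, where miR-148a-3p went from 58.1 ± 12.8 rpmm in IA to 40.6 ± 12.9 rpmm in HA mice (log2 fold change -0.54 ± 0.19 SE, adjusted p = 0.112), and heart, with 138 ± 29.6 and 101 ± 21.0 rpmm (-0.45, adjusted p = 0.101). Heart was also the tissue of miR-148b-3p, with 19.8 ± 2.51 rpmm in IA and 15.1 ± 3.19 rpmm in HA mice (-0.38, adjusted p = 0.0783). For ACC 0 of 18 pairs passed in limma, where 0% of all tests did. An unadjusted p under 0.05 was reached in 0 tissues by each member, and edgeR called 0. The kidney value for ACC was -0.05, with means of 26.7 rpmm in HY and 27.6 rpmm in IY mice. REJ and ACC share their isochronic libraries with the comparison of IA and IY.

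**Figure D4:**
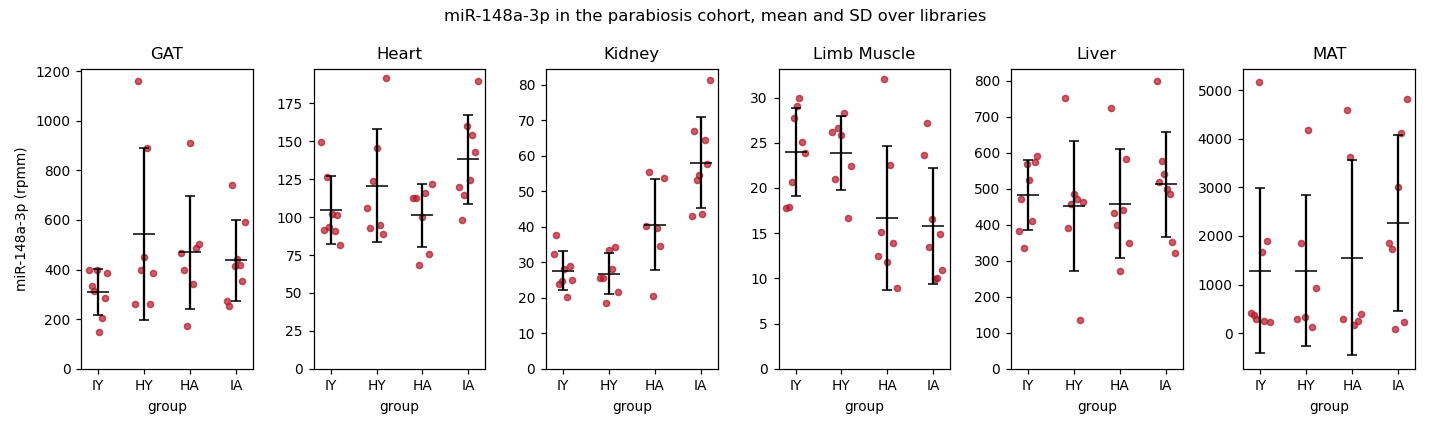
miR-148a-3p in 6 tissues of the parabiosis cohort (y axis, rpmm from a linear axis of its own in each panel; x axis, group), with 1 point per library and the mean ± SD. In kidney the IA libraries at 43.04 to 81.5 rpmm lie above all IY libraries at 20.2 to 37.7 rpmm, and in MAT the 4 groups each spread over more than a 10-fold range.

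MAT of joined mice varied most. miR-148a-3p ranged there from 92.7 to 5163 rpmm over 27 libraries, against 9.83 to 351 rpmm over the 47 MAT libraries of the aging cohort. The markers of exocrine pancreas, miR-216a-5p, miR-216b-5p and miR-217-5p, summed to 14.8 to 12456 rpmm in the same 27 libraries and to at most 59.9 rpmm in MAT of the aging cohort. In the 16 libraries in which this sum was over 100 rpmm the median was 1874 rpmm for miR-148a-3p, 436 for miR-152-3p and 26.9 rpmm for miR-148b-3p. In the other 11 the medians were 259.6, 239 and 30.8 rpmm. The sum was over 100 rpmm in 2 of 6 HA, 4 of 6 HY, 6 of 7 IA and 4 of 8 IY libraries. The log2 fold changes of miR-148a-3p in MAT were -0.91 ± 1.00 (SE) for REJ and 0.87 ± 0.94 for IA against IY, with adjusted p of 0.588 and 0.526, and the part of the exocrine markers in these values was not tested.

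**Figure D5:**
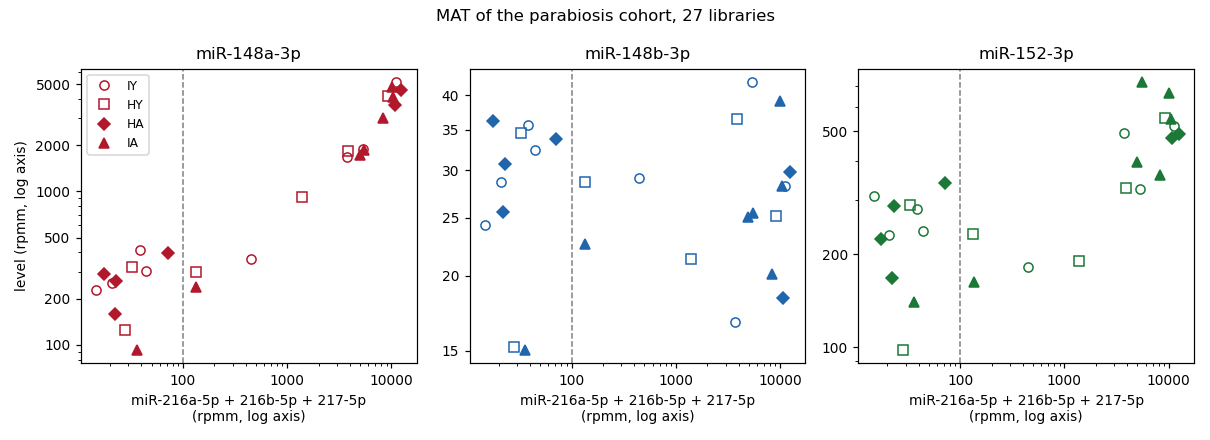
Each member's level (y axis, rpmm, log axis) against the sum of 3 exocrine pancreas markers (x axis, rpmm, log axis) in the 27 MAT libraries of the parabiosis cohort, with open symbols for young and filled symbols for aged mice and a dashed line at 100 rpmm. miR-148a-3p goes up to 5163 rpmm where the markers are high, miR-152-3p has medians of 436 and 239 rpmm right and left of the line, and miR-148b-3p has no such difference, with medians of 26.9 and 30.8 rpmm.

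The passenger arms were tested in the same way. With age rho was beyond the limits in 1 of 28 pairs of arm and tissue, miR-148b-5p in BAT (rho = 0.59). Among later ages 1 of 197 comparisons passed, miR-152-5p in skin at 15 months, and between the sexes 1 of 28, also miR-152-5p in skin, while 0 of 24 passed at 1 month and 0 of 48 in the parabiosis cohort.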

How the data were processed

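Per the labels and the study's methods, small RNA libraries were sequenced single-ended, reads were mapped with 1 mismatch allowed to RNA reference sequences (miRBase for miRNAs), libraries under 2 M aligned reads were left out, and RNAs with at least 1 rpmm in at least 1 library were kept. The deposited signal, in rpmm, is the authors' read count per 1e6 mapped reads. The submitters' notes name the build mm10. In the table of the aging cohort, 2 columns matched no sample and were not used. Whole reads, within 0.05 reads and tested up to 1000 reads, were recovered for 100% of the values of other RNAs and for 98.97% (aging) and 98.84% (parabiosis) of the miRNA values.

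The members, lists and tests were chosen with earlier results of these data known, among them the family itself. Within each tissue miRNAs with at least 1 rpmm in 10% of the libraries were tested. Correlation with age was Spearman's rho with 100000 shuffles of age, for which 1e-05 is the smallest p possible. Groups of at least 3 libraries were compared with limma 3.58.1 in R 4.3.3 on log2(rpmm + 1), with a mean trend in the empirical Bayes step and all groups of a tissue in 1 fit. Calls had a Benjamini-Hochberg adjusted p under 0.05 within tissue and contrast, over all miRNAs tested. edgeR 4.0.16 on the recovered reads was an alternative. The named miRNAs are all 3 members, their other arms, the 3 miRNAs most like each member by Pearson's r over the tissue means, and markers that moved with a called result. Other work used Python 3.11.15, numpy 2.4.6 and pandas 2.3.3, and each test recovered known changes in simulated data. Libraries of a group were separate mice, so p-values measure the spread between mice together with that of library preparation. In the IA and IY groups, however, partners of a joined pair lay in the same group and shared their blood. Their libraries were thus not independent, and only the fits with the replicate block take the pairs into account. Counting floors cover counting error only.

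In the parabiosis cohort the replicate number names the joined pair, so partners are paired by design. The correlation of partners' deviations from their group means ran from -0.817 to 0.865. In heterochronic pairs it was over 0.1 in 7 of 7 pairs in liver, 6 of 7 in heart, 5 of 7 in limb muscle, 3 of 6 in kidney, 2 of 7 in GAT and 2 of 5 in MAT. The fits without libraries low in miRNA, and in the parabiosis cohort and the model over all tissues those without libraries closest to another tissue, were chosen after seeing the data. The strain names of the parabiosis cohort are not reported here.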

Additional observations from a re-analysis of the deposited data

Results flagged for a closer look

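The level of miR-148a-3p in replicate 01 of spleen at 3 months, 1.198 rpmm, stood apart from the other 5 libraries of its group, which held 69.8 to 102 rpmm (Dixon ratio 0.678 against a critical value of 0.625). The library had 3.34 M (1e6) mapped reads, a summed miRNA signal of 43675 rpmm, 0.300 rpmm of miR-152-3p and no read of miR-148b-3p. It was the 1 group flagged of 27 tested in this way, and chance flags about 1 in 20.

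In 3 cases the change of a member from 3 to 21 months in 1 tissue differed from the mean change of the other tissues in the same limma model. The log2 difference was 1.95 for miR-148a-3p in spleen (adjusted p = 0.00613), -1.65 for miR-148a-3p in limb muscle (adjusted p = 0.0126) and -1.36 for miR-152-3p in limb muscle (adjusted p = 0.0481). Without libraries low in miRNA the differences were 1.39 (adjusted p = 0.00686), -1.25 (adjusted p = 0.00969) and -0.97 (adjusted p = 0.0560).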

How the results depend on the processing

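No called value changed its direction under any alternative run. Of the values for single members, 199 kept their side of the threshold and 74 fell below it, and of the counts and tissue folds 95 stayed near the reported value and 44 moved. The counts that moved are given here, and the cause was not tested. The share of all miRNAs called under each alternative is not given, so these counts have no background beside them. The 5 age correlations were 2 by Pearson's r and 9 by the adjusted p. The 2 calls of 21 against 3 months were 0 in males only, 4 with miRNA-read scaling, 1 with no filter and 8 by a ratio of means over 3/2 or under 2/3 with unadjusted p, and 1 to 4 with 1 library left out. The 13 calls of later ages were 6 with no filter, 23 with the set of 12 title numbers as a covariate and 11 to 20 with 1 library left out (20 without replicate 17 of liver at 21 months). For 1 against 3 months the count of 0 was 1 with a minimum mean of 10 rpmm, with the plate as a covariate and with a pseudocount of 0.1 rpmm, and up to 2 with 1 library left out. The 2 sex calls were 1 with edgeR, 7 with the plate, 1 with the title sets and 1 without libraries low in miRNA. REJ gave 1 call with median-ratio scaling, 1 with the plate (miR-148a-3p lower in HA kidney in each) and up to 1 with 1 library left out, while ACC stayed at 0. The 2 calls of IA against IY were 0 with IY of 4.5 months only, 1 with edgeR, 1 with median-ratio scaling, 4 with miRNA-read scaling, 1 with the replicate block as a random effect, and 1 to 4 with 1 library left out. The 1 call of HA against HY was 3 with median-ratio scaling, 2 with miRNA-read scaling, 0 with no filter, 3 with the plate, 0 with the replicate block as a fixed term, 2 with it as a random effect, 2 by the ratio of means, and 0 to 2 with 1 library left out. No other call of a member changed with the replicate block. The 3 differences of a tissue from the others were 1 in males only and 6 without libraries closest to another tissue. The tissue folds were 1101, 15.6 and 92.4 with miRNA-read scaling, and 74.9 for miR-152-3p with median-ratio scaling. Depth bears on miR-148b-3p, which had no read in 3 libraries and a mean of 8.79 rpmm in limb muscle.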

Other observations

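miR-148b-3p differed between sets of 12 consecutive numbers in the library titles, which are not an annotated batch. In spleen its median was 23.7, 25.7, 20.4, 8.68 and 3.33 rpmm in the 5 sets, where that of miR-148a-3p was 310.03, 151, 191, 111 and 167 rpmm. In kidney the medians of miR-148b-3p were 5.21, 29.9, 31.6, 31.9 and 43.8 rpmm, and those of miR-148a-3p 10.9, 31.8, 31.2, 35.6 and 34.03 rpmm. The sets were among the covariates tried.

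In GAT of the parabiosis cohort the summed exocrine pancreas markers were over 100 rpmm in 1 of 30 libraries, an IA library with 116 rpmm. In pancreas of the aging cohort they were over 100 rpmm in 44 of 45 libraries, with a median of 6186 rpmm.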
